A study of Drosophila melanogaster with 14 samples.

Results

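Transcript levels after RNAi against Lint-1 were compared directly with those after RNAi against l(3)mbt in cultured ovarian somatic cells (OSCs) of Drosophila melanogaster. The comparison used 4 polyadenylated RNA libraries of the 14 samples in the series, chosen by the RNAi target in their labels: 2 libraries of Lint-1 knockdown (Lint-1 KD) and 2 of L(3)mbt knockdown (L(3)mbt KD). A further 2 libraries with RNAi against EGFP, a sequence that fly cells lack, were the control (EGFP KD), and 2 with RNAi against Lint-O entered the same statistical fit. All 8 RNA libraries came from the same cell type, cultured in the same medium and treated for 48 hours. No animal, sex or genotype separates the groups, and OSCs are a single cultured line of follicle-cell origin without germ cells. RNAi lowers a transcript without removing it, and nothing in the labels tells whether a group's 2 libraries were grown as separate cultures. The p-values therefore measure only the spread between these libraries, which may be technical.

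L(3)mbt binds chromatin through its MBT repeats, and flies that lack it switch on germline genes in somatic tissue. It is found in at least a pair of repressor assemblies: the dREAM complex, which holds E2F and retinoblastoma-family proteins, and the LINT complex, in which it associates with Lint-1 and the corepressor CoREST. Lint-1 (L(3)mbt-interacting protein) was described in Drosophila cell lines as the partner of L(3)mbt in LINT. The direct comparison asks how far the transcriptome without Lint-1 resembles that without L(3)mbt, and where it departs from it.

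Reads assigned to genes numbered 18293791 to 20978039 in the libraries compared, and 8244 genes passed the filter on low counts. Levels are counts per 1000000 reads (CPM) with TMM normalisation, given per library or as mean ± SD with n = 2. Differences are log2 fold changes of Lint-1 KD over L(3)mbt KD with their standard error (SE) or 95% interval. edgeR's quasi-likelihood test gave the p-values, adjusted over all 8244 genes, and a gene was called where the adjusted value was under 0.05. The marker genes tj, Fas3, zfh1 and eya and the somatic piRNA gene fs(1)Yb were expressed in all 4 libraries, and the 7 follicle cell markers summed to 633.8 to 783.2 CPM in L(3)mbt KD and 620.7 to 693.5 CPM in Lint-1 KD. The remaining 2, ct and cas, lay under 2 CPM. Of 7 germ cell markers otu had no count and osk stayed under 1 CPM in all 4. The germ cell markers summed to 10.4 to 13.3 CPM in EGFP KD. Their sum was 146.4 to 150.6 CPM in L(3)mbt KD and 38.7 to 39.6 CPM in Lint-1 KD, and the difference between the knockdowns lay in vas. Of the others, nos stood at 3.52 and 4.37 CPM in L(3)mbt KD and 4.28 and 6.76 CPM in Lint-1 KD. In the same order bam stood at 14.2 and 14.2 and at 17.0 and 14.8 CPM, and ovo at 5.38 and 6.07 and at 4.51 and 4.45 CPM. The 95% interval of the difference lay within 2-fold for bam (-0.37 to 0.70). It reached beyond 2-fold for nos (-0.37 to 1.33), ovo (-1.07 to 0.36) and orb (-1.54 to 0.99). Hemocyte, muscle, neuron and fat body markers summed to at most 71.2 CPM, and each list was split. Under 1 CPM in all 4 were Hml and NimC1 (hemocyte), up and wupA (muscle) and nSyb, brp and Syt1 (neuron). So were Yp1, Yp2, Lsp2 and Fbp1 (fat body). Above 1 CPM in all 4 were srp, Pxn and crq (hemocyte), Mhc, Mlc2 and Act57B (muscle), elav and cac (neuron) and Yp3 (fat body). Among them crq stood at 37.5 to 48.4 CPM, Mlc2 at 12.6 to 24.6, elav at 22.1 to 31.1 and Yp3 at 2.985 to 8.797. In such bulk samples, fewer cells of a type and less RNA per cell cannot be told apart.

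The RNAi targets were the first check of the labels. The Lint-1 transcript (dm6, X, 11149323 to 11152592) stood at 57.6 and 51.2 CPM in the control libraries, 72.2 and 85.9 CPM in L(3)mbt KD, and 9.81 and 12.2 CPM in Lint-1 KD. The l(3)mbt transcript (3R, 27266326 to 27273273) stood at 187 and 186 CPM in the control, 103 and 95.9 CPM in L(3)mbt KD, and 197 and 197 CPM in Lint-1 KD. Each target was thus lowest in both libraries that carry its name, with no overlap between the groups. Between the knockdowns Lint-1 was 7.20-fold higher in L(3)mbt KD (log2 fold change -2.85, SE 0.166, edgeR adjusted p = 0.000138). Conversely, l(3)mbt mRNA was 1.98-fold higher in Lint-1 KD (log2 fold change 0.99, SE 0.102, edgeR adjusted p = 0.00757). Against the control, the Lint-1 transcript was reduced further in its knockdown (log2 fold change -2.31) than l(3)mbt in its own (-0.91). Lint-O mRNA, listed as CG2662, stood at 21.6 ± 1.80 CPM in L(3)mbt KD and 21.7 ± 1.86 CPM in Lint-1 KD, and its log2 fold change of 0.01 had a 95% interval of -0.48 to 0.50.

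The transcriptomes of the knockdowns lay close together. Of 8244 tested genes only 6 were called different, 3 lower and 3 higher in Lint-1 KD, which is 0.0728% of the genes tested (0.0364% in each direction). The 2 targets are among the 6, so 4 genes other than the targets differed: vas and cona were lower in Lint-1 KD, and mth and mthl9 were higher. For 6279 genes (76.2%) the whole 95% interval of the difference lay within 2-fold either way. The median log2 fold change over all genes was 0.00, with quartiles at -0.17 and 0.12. At an unadjusted p under 0.05 there were 513 genes (6.22%), 340 lower and 173 higher in Lint-1 KD. The number of calls depended on the test, since DESeq2 called 41 genes lower and 12 higher, and edgeR without the filter on low counts called 44 lower and 12 higher. Fits with the replicate number as a block changed the number more, some down and some far up, and are given with their limits at the end.

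How much of this is agreement and how much is imprecision depended on the level of the gene. Genes were classed by their mean in the higher of the knockdowns. Of 1833 genes above 100 CPM 98.5% had an interval within 2-fold, and of 3448 genes at 20 to 100 CPM 92.9%. The share was 75.4% of 1480 genes at 5 to 20 CPM, 16.2% of 947 genes at 1 to 5 CPM and 0.187% of 536 genes under 1 CPM. The median half-width of the interval grew over the same classes from 0.30 to 1.74 on the log2 scale. Of 304 genes whose estimate differed at least 2-fold, 225 lower and 79 higher in Lint-1 KD, 122 stood under 1 CPM and 127 at 1 to 5 CPM, and 299 were not called. Below 5 CPM these libraries could not show whether most genes agreed.

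**Figure D1:**
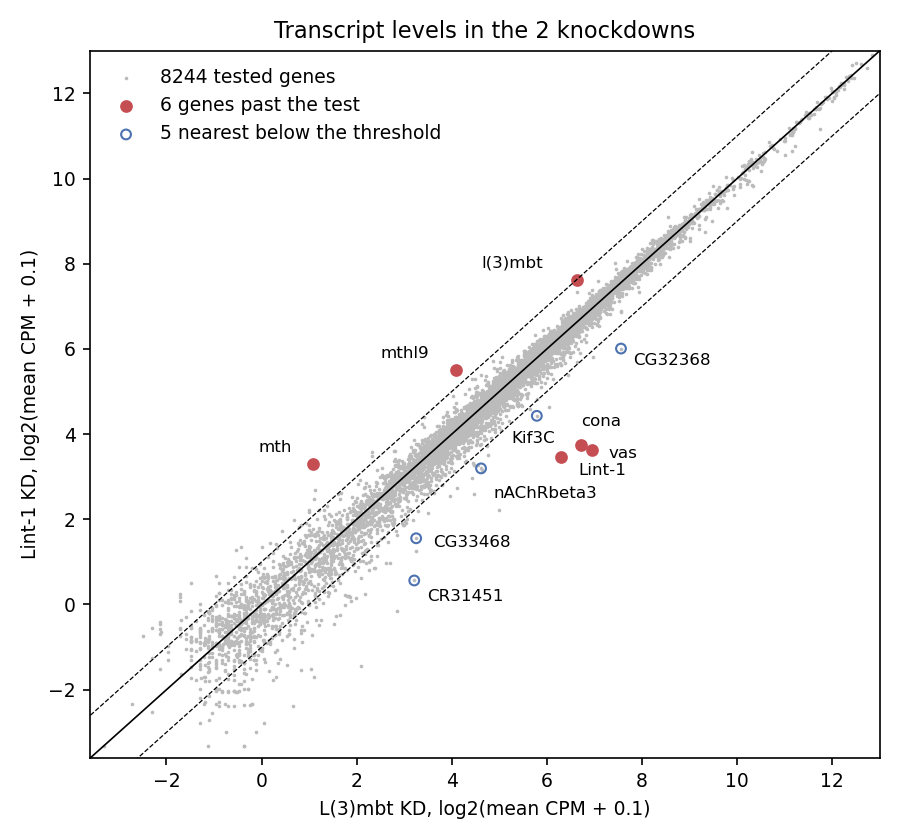
Mean levels of 8244 tested genes in L(3)mbt KD (x axis) and Lint-1 KD (y axis), both as log2(CPM + 0.1), with n = 2 libraries each. The solid line marks equal levels and the dashed lines a 2-fold difference; filled points are the 6 genes past the test and open circles the 5 nearest below the threshold, all 5 lower in Lint-1 KD.

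The distances between single libraries were compared as well. The median absolute difference of log2 CPM (prior count 3) was 0.282 between the L(3)mbt KD libraries and 0.188 between the Lint-1 KD libraries. Across the knockdowns it was 0.176 between the libraries numbered 1 and 0.173 between those numbered 2, both smaller than either distance within a knockdown. The remaining pairs lay at 0.293 (L(3)mbt KD 1 and Lint-1 KD 2) and 0.216 (L(3)mbt KD 2 and Lint-1 KD 1). A difference above 2-fold between single libraries was seen for 5.99% of genes within L(3)mbt KD and 3.21% within Lint-1 KD, against 4.60% to 8.39% across the knockdowns. Libraries of different knockdowns were therefore not consistently farther apart than libraries of the same one. The shortest distances were those of pairs with the same number. Deviations of such libraries from their group mean correlated at 0.36 between these knockdowns. Whatever separates libraries numbered 1 from those numbered 2 thus enters the distances within a knockdown. These distances alone therefore do not show how far the knockdowns agree.

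**Figure D2:**
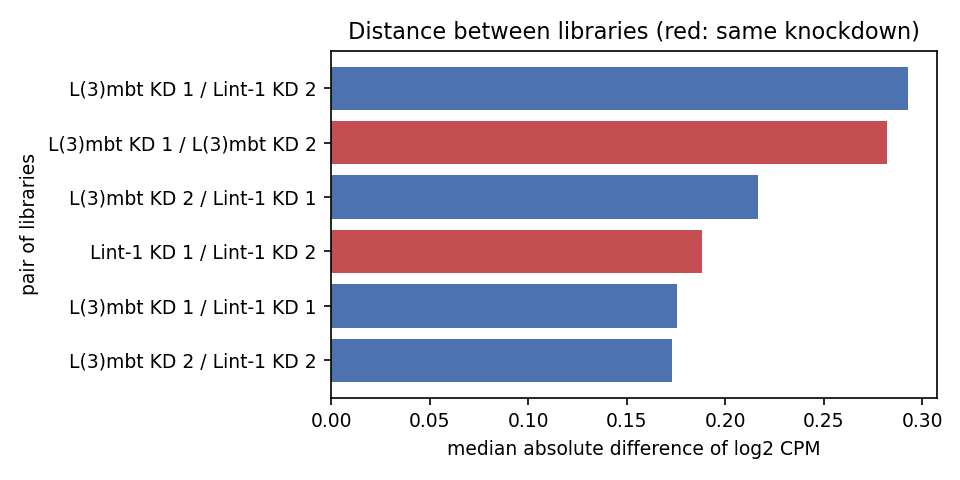
Median absolute difference of log2 CPM over 8244 genes for the 6 pairs of the 4 libraries. Red bars are pairs of the same knockdown (0.188 and 0.282) and blue bars pairs of different knockdowns (0.173 to 0.293); the shortest bars are the pairs that share a replicate number.

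Beside the direct comparison, levels in EGFP KD are given for orientation; both knockdowns were set against the same 2 control libraries. Against them 10.9% of tested genes were called in L(3)mbt KD (9.58% higher, 1.31% lower). In Lint-1 KD it was 9.66% (8.41% higher, 1.25% lower).

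The vas gene had the lowest p-value between the knockdowns. It encodes Vasa, the DEAD-box RNA helicase of the germline granules called nuage, and is used as a defining germ cell marker. Its transcript (2L, 15061656 to 15074311) stood at 1.55 and 1.25 CPM in the control. It reached 122 and 125 CPM in L(3)mbt KD but 12.1 and 12.5 CPM in Lint-1 KD. Both knockdowns thus lay above the control, with L(3)mbt KD 10.0-fold above Lint-1 KD (log2 fold change -3.32, SE 0.175, edgeR adjusted p = 0.000113). In the Lint-O KD libraries vas stood in between, at 54.4 and 71.9 CPM. The neighbouring transcript solo overlaps vas, and no separate value for it was used here, so the vas value may include solo reads. vas is itself 1 of the 7 germ cell markers, and of the others otu and osk were at or near 0 in both knockdowns. The remaining nos, bam, orb and ovo were higher in each library of L(3)mbt KD and Lint-1 KD than in the control. In the control nos stood at 0 and 0.104 CPM, bam at 7.87 and 10.7, orb at 0.222 and 0.208 and ovo at 0.776 and 0.884. orb stood at 1.09 and 1.13 CPM in L(3)mbt KD and 0.837 and 0.995 CPM in Lint-1 KD.

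The cona gene encodes a component of the synaptonemal complex, the structure that holds homologous chromosomes together in meiosis. Its transcript (3R, 18385828 to 18386887) was nearly silent in the control, at 0.222 and 0.312 CPM. It stood at 118 and 93.0 CPM in L(3)mbt KD and at 16.5 and 10.2 CPM in Lint-1 KD. As for vas, all 4 knockdown libraries were above the control and the Lint-1 KD libraries were the lower ones. The difference was 7.87-fold (log2 fold change -2.98, SE 0.248, edgeR adjusted p = 0.00205). Lint-O KD again lay between them, at 47.5 and 59.6 CPM.

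The genes called higher in Lint-1 KD, apart from l(3)mbt, were a pair of methuselah-family G protein-coupled receptor genes. mth is known for its effect on adult lifespan and stress resistance in mutant flies. The mth transcript (3L, 343378 to 346957) stood at 9.14 and 7.85 CPM in the control, 2.23 and 1.80 CPM in L(3)mbt KD, and 9.53 and 9.79 CPM in Lint-1 KD. Both Lint-1 KD libraries thus lay just above the control libraries while L(3)mbt KD lay below them, a 4.79-fold difference between the knockdowns (log2 fold change 2.26, SE 0.246, edgeR adjusted p = 0.00978). Against the control, mth fell in L(3)mbt KD (log2 fold change -2.07, edgeR adjusted p = 0.000662) and had a value of 0.19 in Lint-1 KD (edgeR adjusted p = 0.648).

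mthl9 (3L, 329822 to 332309) stood at 101 and 104 CPM in the control, 15.2 and 18.4 CPM in L(3)mbt KD, and 46.9 and 43.7 CPM in Lint-1 KD. Here both knockdowns were below the control, and Lint-1 KD was 2.70-fold above L(3)mbt KD (log2 fold change 1.43, SE 0.143, edgeR adjusted p = 0.00718). Lint-O KD, at 45.6 and 49.0 CPM, overlapped Lint-1 KD. The calls of vas, cona and Lint-1 held in all 14 alternatives run, with log2 fold changes of vas between -3.34 and -3.32. The 3 calls of genes higher in Lint-1 KD were less firm: in a fit of the 4 libraries alone mth (adjusted p = 0.0628), mthl9 (0.0762) and l(3)mbt (0.0917) did not pass. Without Lint-1 KD replicate 1 none of them passed (0.108, 0.0762 and 0.128 for mth, mthl9 and l(3)mbt), and mth and l(3)mbt also did not without Lint-1 KD replicate 2 (0.130 and 0.130) or L(3)mbt KD replicate 2 (0.0882 and 0.0758).

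**Figure D3:**
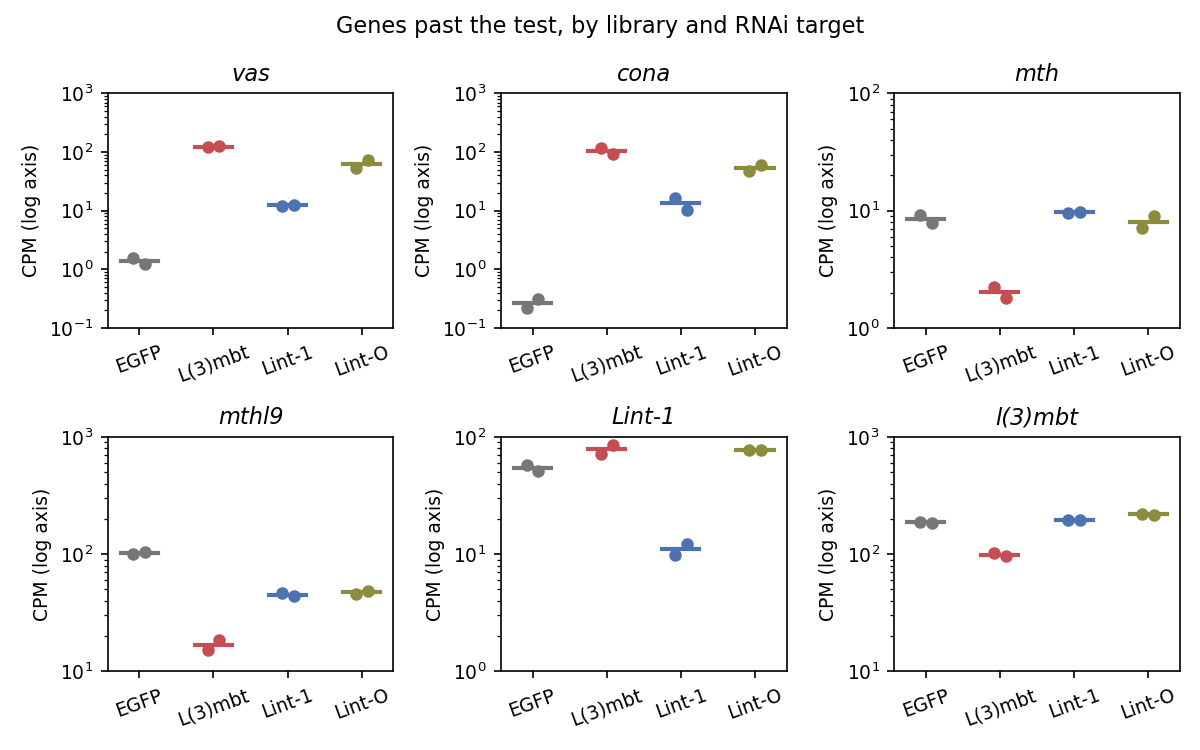
CPM (log axis) of the 6 genes past the test in each of the 8 libraries, by RNAi target; points are libraries and bars the mean of 2, with a separate axis range in each panel. For vas and cona Lint-1 KD lies between EGFP KD and L(3)mbt KD, at 12.3 and 13.4 CPM on average, while for mth it lies beside EGFP KD.

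The chromosomal neighbours of the 4 genes were read for comparison, taking genes within 10000 bases in the RefSeq table of the same assembly. mth and mthl9 both lie inside the span of Ptpmeg, a protein tyrosine phosphatase gene, together with another family member, mthl10 (3L, 332801 to 342915). mthl10 stood at 5.27 and 5.82 CPM in the control, 0.880 and 0.514 CPM in L(3)mbt KD, and 2.60 and 1.47 CPM in Lint-1 KD. Its order matched that of mthl9, with a log2 fold change of 1.54 between the knockdowns (95% interval 0.49 to 2.60), but it did not pass (edgeR adjusted p = 0.470). Ptpmeg itself stood at 48.3 and 44.6 CPM in the control, 80.1 and 91.0 CPM in L(3)mbt KD, and 74.3 and 85.6 CPM in Lint-1 KD, and its libraries overlapped between the knockdowns (log2 fold change -0.10, 95% interval -0.40 to 0.20). The library kit keeps strand, but the strand setting of the counting is not stated, so reads of these nested genes may not be fully separated.

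The methuselah list was chosen with earlier results of these data known, so its counts are a description only. Of 10 tested methuselah genes 2 were called higher in Lint-1 KD, beside 0.0364% of all tested genes. None was called lower, and 8 were not called, among them mthl10. The 7 others, which are mthl1, mthl2, mthl3, mthl4, mthl5, mthl14 and mthl15, had log2 fold changes between -0.28 and 0.03. An interval within 2-fold was found for 6 of the 10 (60%), beside 76.2% of all tested genes.

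Next to vas, CG33679 lies 2536 bases away. It stood at 0.222 and 0.104 CPM in the control, 8.13 and 8.90 CPM in L(3)mbt KD, and 8.42 and 5.08 CPM in Lint-1 KD. Its libraries overlapped between the knockdowns (log2 fold change -0.33, 95% interval -0.98 to 0.31), unlike those of vas. vig, which lies within vas, stood at 212.4 ± 34.3 CPM in L(3)mbt KD and 177.9 ± 48.6 CPM in Lint-1 KD, and its libraries overlapped as well (log2 fold change -0.26, 95% interval -0.74 to 0.23). Vha100-4, which overlaps cona, stood at 1.19 and 1.80 CPM in L(3)mbt KD and 0.883 and 0.576 CPM in Lint-1 KD, lower in Lint-1 KD like cona but with a wide interval (log2 fold change -1.02, 95% interval -2.33 to 0.29). Vha100-2, beside cona, had a log2 fold change of 0.03 (95% interval -0.23 to 0.28). None of the 4 tested neighbours of vas and the 2 of cona was called by edgeR, and none had an unadjusted p under 0.05.

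The 5 genes nearest below the threshold were all lower in Lint-1 KD, and none of their libraries overlapped between the knockdowns, a pattern that 30.9% of all tested genes showed in either direction (15.6% with Lint-1 KD lower, 15.3% higher). CG33468, a gene with no role given here, stood at 0.942 and 1.04 CPM in the control, 9.01 and 9.83 CPM in L(3)mbt KD, and 2.74 and 2.93 CPM in Lint-1 KD (log2 fold change -1.73, SE 0.238, edgeR adjusted p = 0.0556). A noncoding RNA, CR31451, stood at 1.05 and 1.25, 7.25 and 11.1, and 1.39 and 1.36 CPM in the same order (log2 fold change -2.73, SE 0.398, edgeR adjusted p = 0.0746). Lint-1 KD was thus close to the control for CR31451, and Lint-O KD, at 4.19 and 8.44 CPM, was above it.

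nAChRbeta3, a subunit gene of the nicotinic acetylcholine receptor, stood at 0.166 and 0.364 CPM in the control, 23.5 and 25.3 CPM in L(3)mbt KD, and 8.28 and 9.85 CPM in Lint-1 KD (log2 fold change -1.43, SE 0.215, edgeR adjusted p = 0.0746). CG32368, a noncoding RNA, stood at 7.37 and 3.95, 167 and 210, and 57.2 and 71.3 CPM in the same order (log2 fold change -1.55, SE 0.236, edgeR adjusted p = 0.0746). Both were above the control in each knockdown library and higher in L(3)mbt KD. Kif3C, a kinesin gene on chromosome 4, stood at 31.7 and 45.1 CPM in the control, 56.7 and 53.6 CPM in L(3)mbt KD, and 20.7 and 22.2 CPM in Lint-1 KD (log2 fold change -1.36, SE 0.203, edgeR adjusted p = 0.0746). For Kif3C alone among these 5, the control lay between the knockdowns. All 5 passed with DESeq2 (adjusted p from 8.37e-08 for CG32368 to 0.000431 for CG33468) and in edgeR without the filter on low counts. Over all genes these settings called 41 and 44 lower in Lint-1 KD, and 12 and 12 higher. The 5 were chosen by their low p in the same libraries, so these passes are no separate support.

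Genes that rose strongly over the control in both knockdowns included some with like and some with unlike levels. The 10 genes with the largest rises over the control in both, with at least 5 CPM in each, all had fewer than 10 counts in the control libraries together. They were ranked by the smaller of their rises, which fixes their high levels and also favours genes with similar rises, so their differences are a description only. None of the 10 was called different by edgeR and DESeq2 called 1, CG11052. An unadjusted p under 0.05 was found for 3 of the 10 (6.22% of all tested genes), non-overlapping libraries for 8 (30.9%) and an interval within 2-fold for 4 (76.2%). BigH1, a germline and early embryonic form of linker histone H1, stood at 18.0 and 23.6 CPM in L(3)mbt KD and 19.0 and 19.0 CPM in Lint-1 KD (log2 fold change -0.13, 95% interval -0.70 to 0.44). CG9427 stood at 7.30 and 8.75 CPM in L(3)mbt KD and 8.32 and 8.96 CPM in Lint-1 KD (log2 fold change 0.11, 95% interval -0.52 to 0.73). For both genes the libraries of the knockdowns overlapped and the interval excluded a 2-fold difference.

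CG11674 (29.4 and 41.8 CPM in L(3)mbt KD, 51.8 and 47.0 CPM in Lint-1 KD) also kept within 2-fold, with an interval from 0.05 to 0.90, as did CG34355 (31.5 and 32.1, 23.5 and 29.2 CPM, interval -0.92 to 0.37). The intervals of 5 more reached beyond 2-fold on 1 side: Vdup1 (-1.04 to 0.32), Arpc3B, an actin nucleation subunit gene (-1.09 to 0.03), hebe (-0.11 to 1.11), swa, needed to localise mRNA in oocytes (-0.24 to 1.06), and CG14516, now called superdeath (0.23 to 1.28). Of these, swa stood at 8.75 and 9.36 CPM in L(3)mbt KD and 11.9 and 12.2 CPM in Lint-1 KD, so its libraries were higher in Lint-1 KD, the opposite order to vas. CG11052, with 17.1 and 17.3 CPM in L(3)mbt KD and 6.23 and 6.97 CPM in Lint-1 KD, lay apart from the other 9 (log2 fold change -1.39, 95% interval -1.87 to -0.90, edgeR adjusted p = 0.0954).

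**Figure D4:**
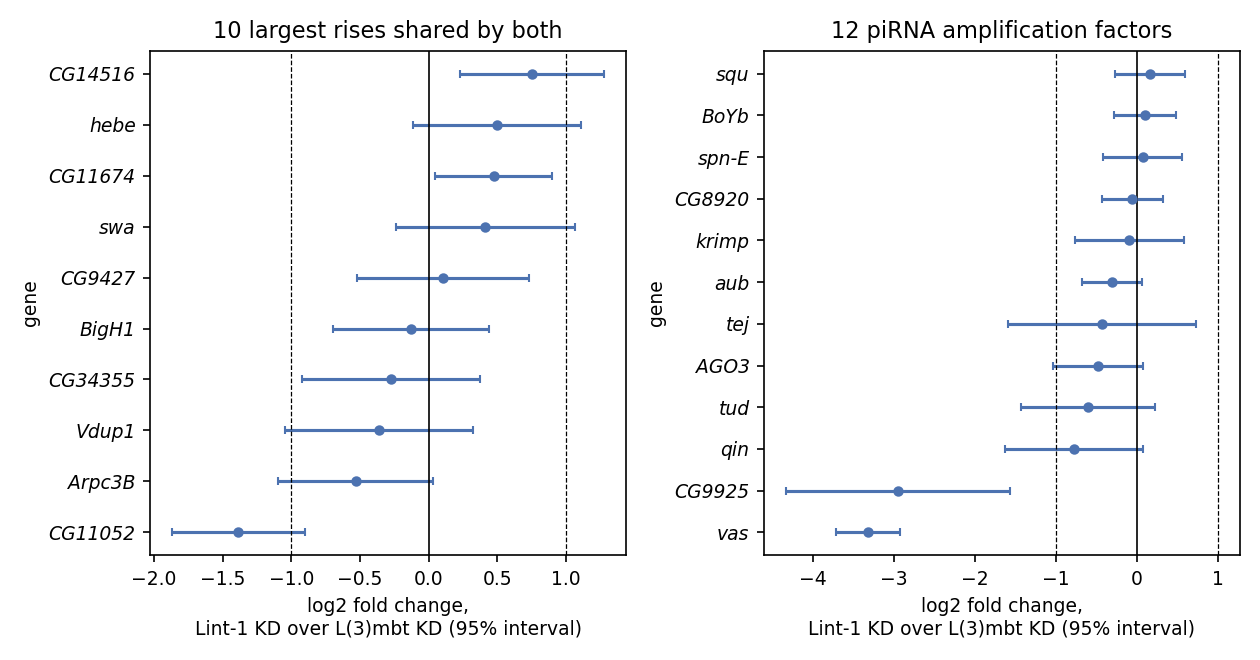
Log2 fold change of Lint-1 KD over L(3)mbt KD with its 95% interval for the 10 largest rises shared by both knockdowns (left) and the 12 germline piRNA amplification factors (right); the solid line marks no difference and dashed lines a 2-fold difference. vas lies far to the left at -3.32, while aub lies at -0.31 with an interval inside 2-fold.

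The germline piRNA amplification factors act in the ping-pong cycle, in which the PIWI proteins Aub and AGO3 cut transposon transcripts in nuage. Of 12 tested members 1 (vas) was called lower, beside 0.0364% of all tested genes, none was higher and 11 were not called. The median log2 fold change was -0.37, beside 0.00 over all tested genes. aub stood at 2.27 and 3.02 CPM in the control, 45.3 and 44.7 CPM in L(3)mbt KD, and 39.8 and 32.7 CPM in Lint-1 KD (log2 fold change -0.31, 95% interval -0.68 to 0.06). The large rise of aub over the control was therefore within 2-fold of equal in the knockdowns, unlike that of vas. AGO3 stood at 9.16 ± 0.515 CPM in L(3)mbt KD and 6.56 ± 0.795 CPM in Lint-1 KD, without overlap (log2 fold change -0.48, 95% interval -1.03 to 0.07). The Tudor-domain gene qin stood at 18.7 and 8.49 CPM in L(3)mbt KD and 10.0 and 5.81 CPM in Lint-1 KD, overlapping (log2 fold change -0.78, 95% interval -1.63 to 0.07).

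Another factor of the list, CG9925 (Kots), stood at 2.17 and 1.75 CPM in L(3)mbt KD and 0.186 and 0.314 CPM in Lint-1 KD, without a count in the control (log2 fold change -2.95, SE 0.600, edgeR adjusted p = 0.227). It rested on 76 counts in L(3)mbt KD and 10 in Lint-1 KD. The Tudor-domain gene tej stood at 1.45 and 2.93 CPM in L(3)mbt KD and 1.77 and 1.47 CPM in Lint-1 KD, which overlap. tud had a log2 fold change of -0.60 with an interval from -1.43 to 0.22. The 5 remaining members, krimp, spn-E, CG8920 (tapas), BoYb and squ, had log2 fold changes between -0.10 and 0.16, each with an interval within 2-fold. Among 8 dual-strand piRNA cluster factors, which license transcription of germline piRNA clusters, and 19 somatic piRNA factors none was called. The counts at an unadjusted p under 0.05 were 0 in each of these lists, beside 6.22% of all tested genes. The medians were -0.27 and 0.00. An interval within 2-fold was found for 4 of the 8 dual-strand factors (50%) and 17 of the 19 somatic factors (89.5%). Over all tested genes the share was 76.2%, and 92.9% to 98.5% above 20 CPM.

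In the germline identity and egg list none of 18 tested genes was called, 4 had an unadjusted p under 0.05 (6.22% over all tested genes), and the median log2 fold change was -0.18. Their estimates pointed both ways. gnu, a regulator of the first embryonic divisions, stood at 3.62 and 5.20 CPM in L(3)mbt KD and 0.930 and 1.26 CPM in Lint-1 KD (log2 fold change -2.01, 95% interval -3.08 to -0.94, edgeR adjusted p = 0.287). tor, which encodes the Torso receptor tyrosine kinase of the embryonic termini, stood at 9.99 and 6.28 CPM in L(3)mbt KD and 3.02 and 4.35 CPM in Lint-1 KD (-1.14, 95% interval -1.86 to -0.43, edgeR adjusted p = 0.385). yl, the yolk protein receptor of the oocyte, had the opposite order, at 1.50 and 2.62 CPM in L(3)mbt KD and 7.86 and 4.82 CPM in Lint-1 KD (1.62, 95% interval 0.52 to 2.71, edgeR adjusted p = 0.470). The libraries of gnu, tor and yl did not overlap between the knockdowns, and DESeq2 called gnu (adjusted p = 0.0195) but neither of the others. These genes were named for the lowest p in the list, which favours such a pattern. Of the 18, libraries did not overlap for 9 with Lint-1 KD lower and 3 with it higher. Over all tested genes the shares were 15.6% and 15.3%. Within 2-fold by their intervals were bam, bgcn, exu, Rbp9, png, aret, grk and BigH1, 8 of the 18, beside 76.2% of all tested genes and 75.4% of those at 5 to 20 CPM.

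Of 20 tested meiosis genes cona was called lower in Lint-1 KD, beside 0.0364% of all tested genes. None was higher and 19 were not called, with a median of 0.15. hdm, a meiotic recombination gene, stood at 0.776 and 0.364 CPM in the control, 10.5 ± 0.646 CPM in L(3)mbt KD, and 21.1 ± 1.01 CPM in Lint-1 KD. It was thus 2.01-fold higher in Lint-1 KD than in L(3)mbt KD, against the direction of cona, without passing (log2 fold change 1.01, SE 0.228, edgeR adjusted p = 0.250). It passed with DESeq2 (adjusted p = 0.0207) and in edgeR without the filter on low counts (0.0459). The other synaptonemal complex genes c(3)G (4.26 ± 2.32 CPM in L(3)mbt KD, 3.48 ± 1.52 CPM in Lint-1 KD) and c(2)M (5.99 ± 0.0997 and 4.86 ± 1.61 CPM) had overlapping libraries. CG2709 (vilya), CG32088 (sunn) and CG12200 (narya) all had intervals within 2-fold, with log2 fold changes of 0.15, 0.32 and 0.27. Over the list 13 of 20 (65%) had such an interval, beside 76.2% of all tested genes. Libraries did not overlap for 9 of the 20 with Lint-1 KD higher and 1 with it lower, beside 15.3% and 15.6% of all tested genes.

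None of 5 tested genes of the testis list was called (2 at an unadjusted p under 0.05, beside 6.22% of all tested genes). tomb, of the meiotic arrest class, stood at 7.51 and 8.13 CPM in L(3)mbt KD and 3.63 and 3.46 CPM in Lint-1 KD (log2 fold change -1.14, 95% interval -1.70 to -0.58, edgeR adjusted p = 0.234). ocn stood at 5.54 and 7.77 CPM and 3.81 and 3.25 CPM (-0.91, edgeR adjusted p = 0.464), while mia, at 17.6 ± 1.94 and 21.3 ± 1.55 CPM, had an estimate of 0.28 and an interval within 2-fold. Of 16 tested ribosomal protein paralogs none was called (3 at an unadjusted p under 0.05, beside the same 6.22%). All but RpS10a (93.8%) had an interval within 2-fold, beside 76.2% of all tested genes and 92.9% to 98.5% of those above 20 CPM. RpS5b, the germline-enriched copy of RpS5a, stood at 1120 and 1460 CPM in L(3)mbt KD and 891 and 934 CPM in Lint-1 KD (-0.50, 95% interval -0.86 to -0.14). RpS19b, the germline-enriched copy of RpS19a, went the other way, at 151 and 201 CPM in L(3)mbt KD and 231 and 238 CPM in Lint-1 KD (0.41, 95% interval 0.08 to 0.75). Reads shared between such copies may have been split, so these values are uncertain.

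The repressor complex genes themselves were read as a list. Of 19 tested LINT and dREAM genes only the targets were called, beside 0.0728% of all tested genes. The 17 others, 89.5% of the list, had an interval within 2-fold. Over all tested genes the share was 76.2%, and 92.9% to 98.5% above 20 CPM, where most of these genes lie. The count is thus near the background of their level. CoRest had a log2 fold change of 0.07 (95% interval -0.18 to 0.32) and E2f2 of 0.15 (-0.22 to 0.51). The highest estimate after l(3)mbt was that of mip130, a dREAM subunit gene, at 54.8 and 49.6 CPM in L(3)mbt KD and 60.9 and 66.6 CPM in Lint-1 KD (0.29, edgeR adjusted p = 0.795).

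No member of the other lists was called. All 10 insulator genes and all 20 replication and cell cycle genes had an interval within 2-fold, as had 9 of 11 heat shock genes, with medians of 0.07, 0.03 and 0.14. Over all tested genes the share was 76.2%, and 92.9% to 98.5% above 20 CPM, where most of these genes lie, so the counts are near the background of their level. Lower shares were found for follicle cell (7 of 16), immune (4 of 9) and muscle-type genes (2 of 8). Neuronal (1 of 4), fat body (0 of 2) and hemocyte genes (3 of 5) were also below 76.2%. So were basement membrane (6 of 9) and apoptosis genes (5 of 7), while Hippo pathway genes (11 of 14, 78.6%) were not. p53 was the nearest of the 7 apoptosis genes, at 97.1 and 113 CPM in L(3)mbt KD and 70.3 and 74.3 CPM in Lint-1 KD, against 36.9 and 37.2 CPM in the control (-0.54, 95% interval -0.83 to -0.26, edgeR adjusted p = 0.279). eya, a transcriptional coactivator used as a follicle cell marker, stood at 31.0 and 33.7 CPM in L(3)mbt KD and 44.6 and 58.4 CPM in Lint-1 KD (0.67, 95% interval 0.29 to 1.05, edgeR adjusted p = 0.310). Most follicle cell genes had the opposite order: of 16 tested, 10 estimates were lower in Lint-1 KD and 6 higher, with a median of -0.28. The paramyosin gene Prm stood at 13.7 and 13.9 CPM in L(3)mbt KD and 6.83 and 6.91 CPM in Lint-1 KD, beside 6.71 and 7.44 CPM in the control (-1.01, 95% interval -1.46 to -0.56, edgeR adjusted p = 0.185, DESeq2 adjusted p = 0.0270). Another muscle-type gene, Mlc2, went the other way (14.8 ± 3.11 and 22.9 ± 2.34 CPM). Of the immune genes, PGRP-SA, a peptidoglycan sensor of the Toll pathway, stood at 2.64 and 2.88 CPM in L(3)mbt KD and 0.511 and 0.733 CPM in Lint-1 KD (-2.15, edgeR adjusted p = 0.234). Drsl5, a drosomycin-like peptide gene, stood at 4.76 and 5.45 CPM and 2.14 and 1.26 CPM (-1.58, edgeR adjusted p = 0.290).

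Counted over the remaining lists at an unadjusted p under 0.05, which 6.22% of all tested genes reached, edgeR had 2 of 7 apoptosis genes, 2 of 9 immune genes, 2 of 11 heat shock genes and 2 of 16 follicle cell genes. It had 2 of 8 muscle-type genes, 2 of 4 neuronal genes, 2 of 2 fat body genes and none of 9 basement membrane, 5 hemocyte, 14 Hippo pathway, 10 insulator and 20 replication genes.

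A last description used genes chosen by the contrast of Lint-O KD with EGFP KD, although the filter, scaling and spread behind that contrast came from all 8 libraries. In Lint-O KD 429 genes were called higher than EGFP KD (5.2% of those tested) and 21 lower (0.255%), 5.46% in all. Over the 429, the median log2 fold change of Lint-1 KD over L(3)mbt KD was -0.21, beside 0.00 over all tested genes. Lint-1 KD had the lower estimate in 287 of them (66.9%) and the higher in 142, against 49.8% lower over all genes. Of the 429, 2 were called lower in Lint-1 KD (vas and cona), beside 0.0364% of all tested genes, and none higher. An edgeR unadjusted p under 0.05 was found for 115 of the 429, beside 6.22% of all tested genes. Libraries did not overlap for 183 with Lint-1 KD lower and 67 with it higher, beside 15.6% and 15.3% of all tested genes. For 226 (52.7%) the interval lay within 2-fold, beside 76.2% of all tested genes.

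The median of the 429 lay below that of all genes in each level class. Of the Lint-O-raised genes at 20 to 100 CPM, 73 of 128 had a lower estimate in Lint-1 KD (median -0.07, beside 0.02 over all genes of that level). Above 100 CPM it was 16 of 21 (median -0.24, beside 0.02), and at 5 to 20 CPM 109 of 159 (median -0.25, beside -0.05). The share with an interval within 2-fold was 17.0% at 1 to 5 CPM, beside 16.2% of all genes of that level. At 5 to 20 CPM it was 56.6% beside 75.4%, and at 20 to 100 CPM 77.3% beside 92.9%. Above 100 CPM it was 85.7% beside 98.5%. Over the 21 genes called lower in Lint-O KD the median was 0.24, with 17 estimates higher in Lint-1 KD. Of the 21, 1 (mthl9) was called higher, beside 0.0364% of all tested genes. The lower list is short, and its median rose to 0.41 when the list was chosen with upper-quartile scaling.

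**Figure D5:**
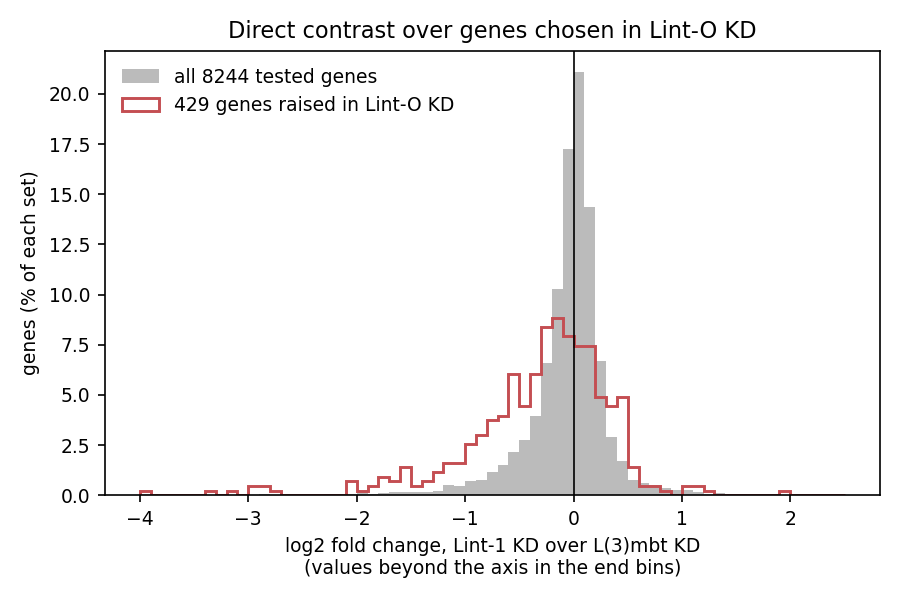
Distribution of the log2 fold change of Lint-1 KD over L(3)mbt KD, in percent of each set per bin of 0.1, for all 8244 tested genes (grey) and for the 429 genes called higher in Lint-O KD than in EGFP KD (red outline). The red outline lies to the left of the grey bars, with a median of -0.21 against 0.00, and reaches further into negative values.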

How the data were processed

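The authors deposited unnormalised gene counts of 8 RNA libraries in a single table, per the file headers and its whole-number values. Per the submitters' processing notes HISAT2, HTSeq and edgeR were used with genome build dm6; the sources used here give no roles or versions, nor the annotation and strand setting. Of 16732 entries, 5 summary lines were dropped; unassigned reads were 15.0% to 18.5% and ambiguous reads 1.05% to 1.13% of a library. Among counts of 1 to 20, 69.3% to 86.6% were even, against 48.9% to 52.1% of larger counts, so a low count may hold fewer independent fragments than its size. The upper limit behind a count of 0 was set at 3 counts (0.139 to 0.166 CPM), which covers counting error only.

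Counts were tested with edgeR 4.0.16 in R 4.3.3: filterByExpr, TMM, a single glmQLFit of the 8 libraries by group, leaving 4 residual degrees of freedom, and glmQLFTest, adjusted by Benjamini-Hochberg. Intervals (95%) are per gene and unadjusted. The procedure was also run on simulated counts of independent libraries, which hold no effect of the replicate number. That run is not used as support here. No replicate pair agreed within sampling noise (chi-square over its degrees of freedom, 22.6 to 54.0). Symbols were matched to the RefSeq gene table of Release 6 (dm6): 12512 current, 3996 through a synonym, 219 unmatched. Of 307 list entries 3 had no line used here. The members and lists were chosen with earlier results of these data known. Named genes were the targets, all called genes (30 or fewer), the 5 nearest below the threshold, the 10 largest rises shared by both knockdowns, the piRNA amplification list and up to 3 genes by p of each other list, of which some are left out for space; other list members, and neighbours, were named after their values were seen. Alternatives were DESeq2 1.42.0, other scalings and filters, a fit of 4 libraries, a replicate block, a 2-fold threshold and each library left out. The 6 ChIP and input samples were not analysed here.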

Additional observations from a re-analysis of the deposited data

How the results depend on the processing

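All 6 called genes kept their direction in the 14 alternatives run, and 72 of 84 of their values also kept the call; the 12 lost calls were those of mth, mthl9 and l(3)mbt. The count of genes called in Lint-1 KD against L(3)mbt KD changed most. Genes lower went from 3 to 6 with upper-quartile factors, 44 without the low-count filter and 41 with DESeq2; genes higher went from 3 to 12, 12 with the last 2 of these and 0 in a fit of only the 4 libraries. Leaving out each replicate gave 0 to 3 higher and 3 to 5 lower. Genes with an interval within 2-fold numbered 5382 to 5869 with a library left out. With each count halved, chosen after seeing the data, 3 were higher and 5 lower. The median over genes lowered in Lint-O KD moved from 0.24 to 0.41 with upper-quartile factors, and the cause was not tested.

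For L(3)mbt KD against EGFP KD, 790 genes were higher and 108 lower; lower genes numbered 168 without the low-count filter, 164 with DESeq2, 20 at a 2-fold change and 19 in a fit of 4 libraries. With a replicate left out 511 to 776 were higher and 20 to 432 lower. For Lint-1 KD against EGFP KD, 693 were higher and 103 lower; lower genes numbered 277, 191 and 27 under the first 3 of these, and a replicate left out gave 414 to 445 higher and 11 to 40 lower.

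Same-numbered libraries are not stated to be paired, and the correlation of their deviations was 0.36 between L(3)mbt KD and Lint-1 KD but -0.38 and -0.24 between EGFP KD and each. With the replicate number as a block over 8 libraries 1 gene, mthl9, was higher in Lint-1 KD, since l(3)mbt (adjusted p = 0.0575) and mth (0.0613) did not pass, and 47 and 40 genes were lower than EGFP KD in L(3)mbt KD and Lint-1 KD. With the block in the 4 libraries compared, chosen after seeing the data and with 1 residual degree of freedom, 110 genes were higher and 369 lower in Lint-1 KD. A crossed replicate block, in which the numbers of EGFP KD and Lint-O KD were exchanged, was also chosen after seeing the data. The deviations of Lint-O KD correlated at -0.26 with L(3)mbt KD and -0.18 with Lint-1 KD, so the exchange followed these correlations and its counts are a description only. It gave 60 higher and 173 lower between the knockdowns, and 1342 and 1186, and 1300 and 1232, against EGFP KD in L(3)mbt KD and Lint-1 KD.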
